A study of Rattus norvegicus with 20 samples.

Results

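The carbonic anhydrases are enzymes that interconvert carbon dioxide and bicarbonate, and 8 of their genes, Car1, Car2, Car3, Car4, Car5b, Car8, Car12 and Car13, were followed across 20 arrays of rat blood cells. Each gene had 1 probe set annotated to its symbol alone, so that the 8 genes accounted for 8 of 28826 probe sets on the array, 15209 of which carried a single gene symbol and stood for 14497 genes. The family was chosen by the log2 signals of Car5b, which were high, and of Car1, which were low, in WKY rats fed the cafeteria diet. The strain difference on that diet is therefore given as a description without a test, and the diet differences of Car5b and Car1, which use the same CAF values, are given in the same way. The tests concern the rats fed standard diet, the diets for the remaining members and the other genes. One array was hybridised per rat, with 5 male rats in each of 4 groups: WKY rats (WKY/NCrl) on cafeteria diet (CAF), WKY rats on standard diet (STD), LEW rats (LEW/Crl) on CAF, and LEW rats on STD. Both strains are inbred, and all rats were 15 weeks old and had been on their diet for 7 weeks. The labels describe the cells as PBMCs, whereas the methods describe PBMCs isolated on a density gradient, a step meant to remove red cells and granulocytes, followed by recovery of monocytes by adherence to plastic. Replicates were separate animals.

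The isoforms differ mainly in where they work. Car1 and Car2 are cytosolic and abundant in red blood cells, in which they speed the loading and release of carbon dioxide, and Car3 and Car13 are cytosolic too, Car3 being best known from muscle and fat. Car4 is anchored to the outer face of the plasma membrane, and Car12 spans it with its active site outside. Car5b resides in the mitochondrial matrix, where bicarbonate is used by carboxylases. Car8 has lost the catalytic activity and is known as a partner of an inositol trisphosphate receptor.

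The arrays were alike in overall level. The median of an array lay between 6.83 and 6.90 on the log2 scale of the deposited signals, which ran from 3.57 to 14.4, and the correlation between 2 arrays was 0.985 at the lowest. Defining markers of several blood cell types were present in every group, with group means of 12.63 to 12.79 for Cd14 of monocytes, 12.17 to 12.36 for Cd3e of T cells, 12.06 to 12.32 for Cd79b of B cells, 12.86 to 13.18 for Pf4 of platelets, 13.04 to 13.66 for the haemoglobin gene Hbb and 9.90 to 11.85 for S100a9 of neutrophils. By these markers the samples held RNA of red cells and platelets beside that of monocytes and lymphocytes. The neutrophil list was mixed in level. Csf3r had group means of 9.71 to 11.13, Cxcr2 of 9.52 to 11.44, Mmp8 of 9.68 to 11.47 and Mmp9 of 10.34 to 11.57. Those of Elane, Mpo, Prtn3, Ctsg, Ltf and Cxcr1 were at most 6.71, below the array medians. In such bulk samples, fewer cells of a type and less RNA per cell cannot be told apart. Signals of Car3 and Car13 were below the median of their array in 20 of 20 rats, that of Car8 in 19 and that of Car1 in 12. Those of Car2 and Car5b were above it in all 20, and those of Car4 and Car12 in 19.

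**Figure D1:**
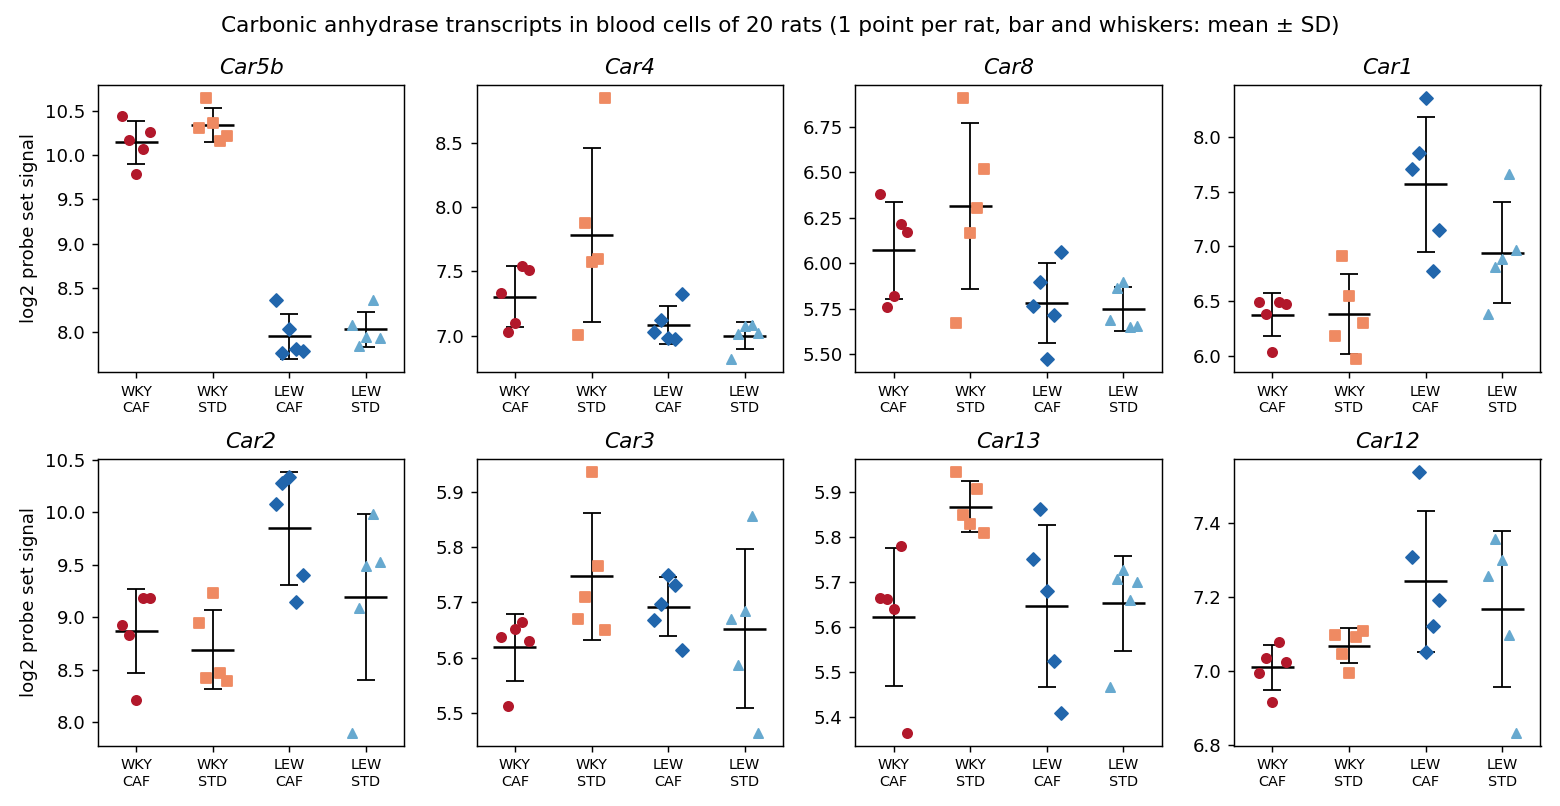
Log2 probe set signal of the 8 carbonic anhydrase genes (y axis, own scale for each gene) in the 4 groups (x axis), with 1 point per rat and the mean ± SD of 5 rats. Car5b set the strains apart on either diet, with no WKY rat below 9.78 and no LEW rat above 8.36, whereas points of the other genes overlapped in at least 1 of the strain comparisons.

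Car5b was the member with the widest range, from 7.76 to 10.65 on the log2 scale. The promoter region of Car5b is shown here because this gene differed so much between strains, beside that of Car4, the other enzyme of the family that differed on STD and has an entry in the sequence table. Both are the 250 bases before the annotated RefSeq start on the plus strand of GRCr8 (chrX:34118776-34119025 for Car5b and chr10:70325108-70325357 for Car4), written 5′ to 3′, with CpG dinucleotides in capitals. The assembly is that of a reference rat and is not the sequence of WKY or LEW rats.
Car5b: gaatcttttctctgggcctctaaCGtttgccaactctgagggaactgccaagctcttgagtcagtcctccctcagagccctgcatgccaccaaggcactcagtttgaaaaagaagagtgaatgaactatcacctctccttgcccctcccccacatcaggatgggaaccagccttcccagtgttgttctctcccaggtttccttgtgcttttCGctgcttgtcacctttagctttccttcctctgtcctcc
Car4: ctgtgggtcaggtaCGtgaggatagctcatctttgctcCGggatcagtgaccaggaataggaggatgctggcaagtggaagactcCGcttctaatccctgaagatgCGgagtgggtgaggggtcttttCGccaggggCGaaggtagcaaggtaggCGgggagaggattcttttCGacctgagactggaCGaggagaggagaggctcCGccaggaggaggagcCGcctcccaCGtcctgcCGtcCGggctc
The Car5b region held 2 CpG dinucleotides and 52.0% G and C, and the Car4 region 14 CpG dinucleotides and 60.4% G and C. Over 33469 such regions of the rat, the median was 5 CpG dinucleotides and 51.2% G and C, and 28.6% of the regions had 2 or fewer CpG dinucleotides while 27.6% had 14 or more. On either strand, neither region held the GC box GGGCGG, the CCAAT box, the TATA box TATAAA, the GATA motif AGATAA, the ETS motif GGAAGT or the E box CACGTG. These letters occurred in 30.5%, 34%, 12.9%, 10.3%, 19.2% and 5.59% of all regions, in the same order.

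The signal of mitochondrial Car5b was about 5 times as high in WKY as in LEW rats on STD, the diet not used to pick the family. Its log2 signals were 10.31, 10.65, 10.37, 10.16 and 10.22 in STD-fed WKY rats, against 8.08, 7.84, 7.94, 8.35 and 7.92 in STD-fed LEW rats. The lowest WKY rat stood well above the highest LEW rat. The means were 10.34 ± 0.19 in WKY rats and 8.03 ± 0.20 in LEW rats (SD, n = 5 each), a log2 difference of 2.32 (SE 0.13, limma, adjusted p = 1.81e-10), or 4.98-fold with a 95% interval of 4.12 to 6.02. Among the probe sets with 1 symbol it ranked number 10 of 15209 by this difference. The value rests on 1 probe set, and sequence variants between the strains under its probes were not checked.

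On CAF, the values that led to the choice of the family were 10.44, 10.17, 9.78, 10.08 and 10.26 for Car5b in WKY rats, against 8.36, 7.76, 8.03, 7.81 and 7.78 in LEW rats. Again the strains did not overlap. The difference was 2.20 on the log2 scale (SE 0.13), or 4.60-fold. The interaction of diet and strain, taken as the CAF minus STD difference of the WKY strain less that of the LEW strain, was −0.12 on the log2 scale (SE 0.19), given without a test since it rests on the same CAF values.

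Car4 and Car8 were also higher in WKY rats on STD. Thus 3 of the 8 members passed the test between strains on STD, all of them higher in WKY rats, beside 11.3% of all probe sets that passed in either direction and 5.88% that were higher. The median log2 difference of the members was 0.15, against −0.0026 for all probe sets. Both the count and the median include Car5b, which was picked for its high signals in CAF-fed WKY rats. The 8 members were also chosen with earlier results of these data known. Of the 7 other measured carbonic anhydrases, none passed on STD, so the count is no test of the family. Car4, the enzyme anchored outside the cell, had signals of 7.01, 7.88, 7.57, 7.60 and 8.85 in STD-fed WKY rats, against 6.82, 7.01, 7.07, 7.08 and 7.02 in LEW rats. One WKY rat lay inside the LEW range, and the one at 8.85 lay far above the others. The difference was 0.78 (SE 0.21, limma, adjusted p = 0.0197), or 1.72-fold. Without the rat at 8.85 it was 0.52 (limma, adjusted p = 0.0242).

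Car8, the catalytically inactive relative, had signals of 5.67, 6.91, 6.17, 6.30 and 6.52 in STD-fed WKY rats, against 5.68, 5.86, 5.90, 5.65 and 5.65 in LEW rats. In this gene, too, 1 WKY rat lay at the level of the LEW rats and the other 4 above all of them. The log2 difference was 0.56 (SE 0.17, limma, adjusted p = 0.0354), and it no longer passed when any 1 of 6 of the 10 STD arrays was left out (replicates 2, 4 and 5 of the WKY rats, and 1, 4 and 5 of the LEW rats, adjusted p = 0.0563 to 0.104). Nor did it pass with the mean of erythroid or of monocyte markers as a covariate (limma, adjusted p = 0.0657 and 0.0522). Both calls were lost when the STD rats alone were fitted (limma, adjusted p = 0.0897 for Car4 and 0.08 for Car8).

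Markers of neutrophils moved with Car4 and Car8. Of 22 neutrophil markers, 14 were higher and none lower in WKY than in LEW rats on STD, and their mean log2 signal was 8.75 to 9.73 in the STD-fed WKY rats, against 7.94 to 8.33 in the STD-fed LEW rats. With this mean as a covariate, the log2 difference on STD was −0.18 for Car4 (SE 0.30, limma, adjusted p = 0.933) and −0.32 for Car8 (SE 0.21, limma, adjusted p = 0.727). That of Car5b was 2.28 with the same covariate (SE 0.25, limma, adjusted p = 1.85e-05). Of the 8 members, Car5b alone then passed. The neutrophil mean did not overlap between strains on STD, so this covariate cannot be separated from strain there. Whether neutrophils account for the differences of Car4 and Car8 was not tested.

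Car1, Car2, Car13, Car3 and Car12 did not pass on STD. Car1 had signals of 6.18, 6.92, 6.55, 5.97 and 6.30 in STD-fed WKY rats, against 6.38, 6.81, 6.88, 7.67 and 6.97 in LEW rats, with a log2 difference of −0.56 (SE 0.25, limma, adjusted p = 0.181). Car2 had signals of 8.95, 8.42, 9.23, 8.46 and 8.39 in WKY rats, against 7.90, 9.09, 9.48, 9.98 and 9.52 in LEW rats, with a difference of −0.50 (SE 0.32, limma, adjusted p = 0.372). In both genes the strains overlapped, and the LEW rats were widely spread. Car13 was at 5.94, 5.85, 5.83, 5.91 and 5.81 in WKY rats, against 5.47, 5.71, 5.73, 5.66 and 5.70 in LEW rats. The strains did not overlap for Car13, as for 8.46% of all probe sets, but the difference was 0.22 (SE 0.08) and missed the threshold (limma, adjusted p = 0.0999; adjusted p = 0.0456 with the STD rats alone). Car3 and the membrane enzyme Car12 differed by 0.09 and −0.10 (limma, adjusted p = 0.416 and 0.558), with 95% intervals of −0.04 to 0.23 for Car3 and −0.29 to 0.08 for Car12.

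**Figure D2:**
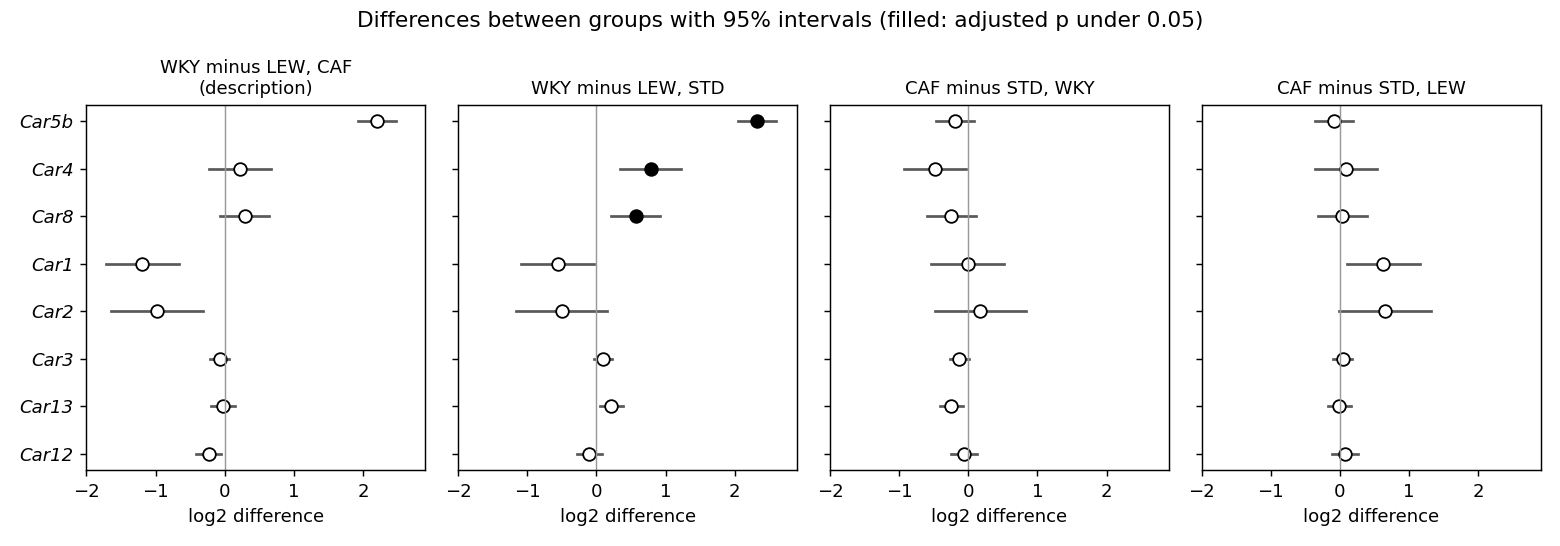
Log2 differences of the 8 genes (rows) with 95% intervals in 4 comparisons (panels), WKY minus LEW on each diet and CAF minus STD in each strain. Filled points passed an adjusted p under 0.05, which applies to Car5b, Car4 and Car8 on STD, and the CAF strain panel and the diet values of Car5b and Car1 are shown without a test.

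On CAF, the red cell genes Car1 and Car2 stood lower in WKY rats, and Car1 was one of the values used in picking the family. Car1 was at 6.49, 6.38, 6.04, 6.49 and 6.48 in CAF-fed WKY rats, against 7.71, 7.85, 8.36, 6.77 and 7.15 in LEW rats. All WKY rats were thus below all LEW rats, with a log2 difference of −1.19 (SE 0.25), or 2.29-fold lower in WKY. Car2 was at 8.92, 8.83, 8.21, 9.18 and 9.19 in WKY rats, against 10.08, 10.28, 10.33, 9.14 and 9.40 in LEW rats, a difference of −0.98 (SE 0.32), with 1 LEW rat inside the WKY range. The other members differed by −0.23 (Car12), −0.07 (Car3), −0.02 (Car13), 0.22 (Car4) and 0.29 (Car8) on the log2 scale, and with the neutrophil mean as a covariate those of Car4 and Car8 turned to −0.35 and −0.23. Over all probe sets 7.58% passed the test on this diet, and strains did not overlap for 7.8%, as for Car5b and Car1 among the members.

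Markers of red cells moved with Car1 and Car2 on CAF. The mean log2 signal of 19 erythroid markers, which include no carbonic anhydrase, was 8.37 to 9.20 in CAF-fed WKY rats, against 9.16 to 9.95 in CAF-fed LEW rats. These erythroid ranges overlapped only from 9.16 to 9.20, so this covariate can hardly be separated from strain on CAF. Among its genes, Xk (−2.25 and −2.34) and Rhd (−2.48 and −1.80) were lower in WKY rats on CAF and STD, and Rhag (1.53 and 1.05) was higher. With the erythroid mean as a covariate, the difference between strains on CAF was −0.61 (SE 0.17) for Car1 and −0.16 (SE 0.14) for Car2. With the mean of 18 monocyte markers it was −0.29 (SE 0.37) for Car1, −0.14 (SE 0.51) for Car2 and 2.73 (SE 0.18) for Car5b. That monocyte mean was 9.69 to 10.11 in CAF-fed WKY rats and 10.25 to 10.44 in CAF-fed LEW rats. These ranges did not overlap, so the monocyte covariate cannot be separated from strain there. With the neutrophil mean the difference was −1.51 (SE 0.33) for Car1 and −1.22 (SE 0.43) for Car2. Of the erythroid markers, 5 were lower and 1 higher in WKY rats on CAF, and 3 were lower and 1 higher on STD. For the other lists, on CAF and then on STD, 6 and 14 of 22 neutrophil markers were higher with none lower on either diet, 1 and 3 of 18 monocyte markers were higher and 6 and 6 lower, and 7 and 9 of 11 NK cell markers were higher with 1 lower on each. Of 16 T cell markers 1 was higher on each diet and 3 and 7 were lower, of 8 B cell markers none and 2 were lower, and of 9 platelet markers 1 and 5 were lower, with none higher in either list. Beside these counts, 7.58% of all probe sets passed on CAF and 11.3% on STD.

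Car1 and Car2 followed the erythroid markers from rat to rat within the groups. To take out strain and diet, the deviation of each rat from its group mean was used, over 20 rats, with permutations of rats within groups. Car2 correlated with the erythroid mean at r = 0.93 and rho = 0.92 (permutation p = 2e-05 for each, adjusted p = 0.00112 and 0.00084 over the 56 relations between 8 genes and 7 marker lists), at 0.91 without the 2 rats farthest from the median, and at 0.91 in WKY and 0.94 in LEW rats. Car1 did so at r = 0.83 and rho = 0.86 (permutation p = 4e-05 and 3e-05, adjusted p = 0.00112 and 0.00084), at 0.77 without the 2 farthest rats, and at 0.65 in WKY and 0.89 in LEW rats. Rats with more signal from red cell markers thus had more Car1 and Car2 signal in both strains.

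Car8 followed the neutrophil markers in the same way, at r = 0.77 and rho = 0.73 (permutation p = 0.001 and 0.00204, adjusted p = 0.0187 and 0.0228), at 0.64 without the 2 farthest rats, and at 0.84 in WKY and 0.63 in LEW rats. For Car4 and the neutrophil markers r was 0.67 and rho 0.72 (permutation p = 0.00861 and 0.00164, adjusted p = 0.0804 and 0.0228), so that the rank correlation passed and Pearson's r did not. Without the 2 farthest rats r was 0.52 for Car4, and it was 0.75 in WKY and 0.59 in LEW rats. Of the 56 relations, 4 passed by Pearson's r, the fourth being Car1 with the monocyte markers at r = 0.57 and rho = 0.59 (permutation p = 0.0023 and 0.0139, adjusted p = 0.0322 and 0.111), at 0.64 without the 2 farthest rats, and at 0.75 in WKY and 0.59 in LEW rats. Car12 ran with the B cell markers by rank only, at r = 0.66 and rho = 0.82 (permutation p = 0.0107 and 0.0003, adjusted p = 0.0856 and 0.0056), at 0.59 without the 2 farthest rats, and at 0.74 in WKY and 0.69 in LEW rats. For Car5b, the nearest to passing was the relation with the monocyte markers, at r = 0.66 and rho = 0.64 (permutation p = 0.00549 and 0.0077, adjusted p = 0.0615 and 0.0719), at 0.58 without the 2 farthest rats, and at 0.83 in WKY and 0.45 in LEW rats.

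**Figure D3:**
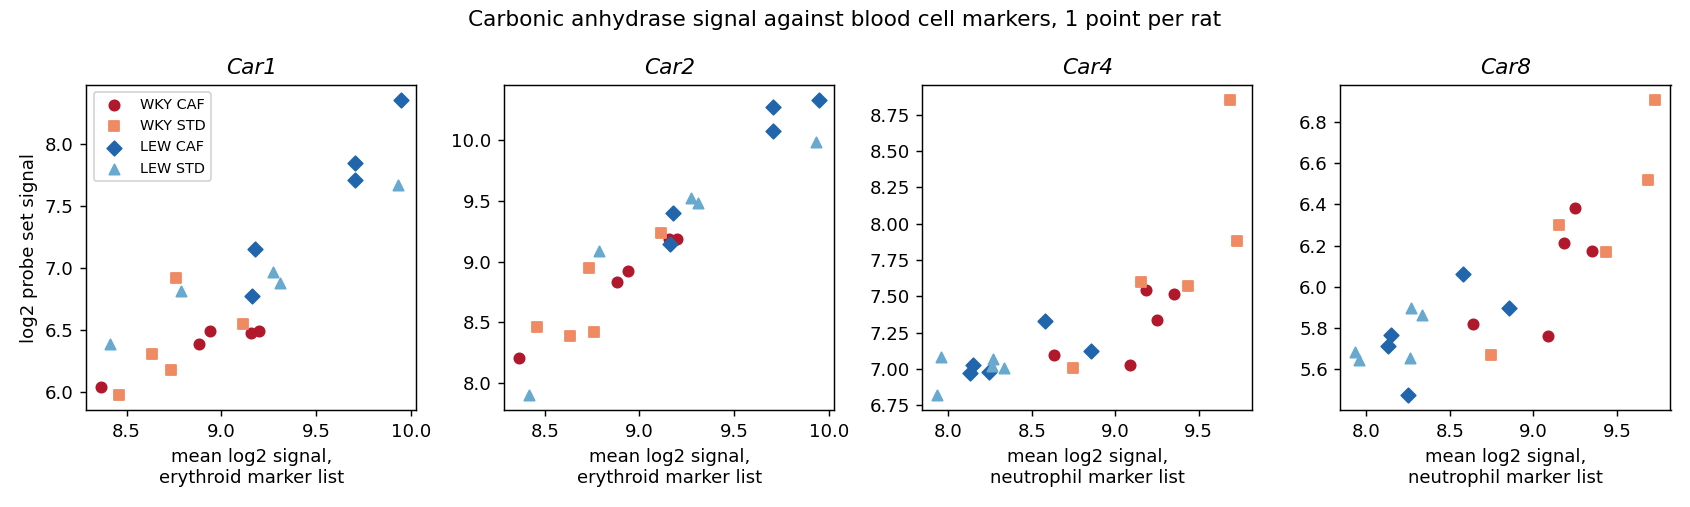
Log2 signal of Car1 and Car2 against the mean log2 signal of 19 erythroid markers, and of Car4 and Car8 against that of 22 neutrophil markers, with 1 point per rat coloured by group. Car1 and Car2 climbed with the erythroid mean, 3 of the 5 CAF-fed LEW rats and 1 STD-fed LEW rat lying at the upper end, while Car4 and Car8 were highest in STD-fed WKY rats with the most neutrophil marker signal.

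Among the 28 pairs of members, Car1 and Car2 alone varied together within the groups by Pearson's r, at r = 0.75 and rho = 0.78 (permutation p = 0.00127 and 0.00084, adjusted p = 0.0356 and 0.0235), and at 0.65 without the 2 farthest rats. The relation was 0.87 in LEW rats and 0.34 in WKY rats, and that difference was not tested. Car4 and Car8 gave r = 0.66 and rho = 0.76 (permutation p = 0.0575 and 0.00196, adjusted p = 0.403 and 0.0274), with 0.60 without the 2 farthest rats, and with 0.67 in WKY and 0.70 in LEW rats.

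No probe set passed the threshold between the diets, since 0% of all probe sets passed in either strain, over both strains or in the interaction (limma, adjusted p at least 0.332 for the members other than Car5b and Car1 in these 4 comparisons). At an unadjusted p under 0.05, 2 members had lower values on CAF in WKY rats, beside 8.81% of all probe sets in either direction and 4.79% in this one. Car13 was at 5.66, 5.66, 5.64, 5.78 and 5.37 in CAF-fed WKY rats, below all 5 STD-fed WKY rats, as were 0.961% of all probe sets, with a log2 difference of −0.25 (SE 0.08, limma, adjusted p = 0.332). Car4 was at 7.34, 7.03, 7.10, 7.55 and 7.51 in CAF-fed WKY rats, within the range of the STD-fed WKY rats, with a difference of −0.48 (SE 0.21, limma, adjusted p = 0.528), which was −0.21 without the STD-fed rat at 8.85.

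In LEW rats, none of the members other than Car5b and Car1 had an unadjusted p under 0.05 between the diets, beside 5.46% of all probe sets in either direction and 2.42% with the higher value on CAF. The difference of Car1 between CAF and STD was 0.63 (SE 0.25), a description since its CAF values were used in the choice of the family, and that of Car2 was 0.65 (SE 0.32, limma, adjusted p = 0.913). Both ranges overlapped between the diets, and the erythroid mean was 9.54 ± 0.35 in CAF-fed and 9.14 ± 0.57 in STD-fed LEW rats (SD, n = 5 each). With the erythroid mean as a covariate, the differences were 0.26 for Car1 and 0.13 for Car2. Car5b differed between CAF and STD by −0.20 in WKY rats and by −0.08 in LEW rats (SE 0.13 each), also without a test. The interaction estimates of the 8 members ran from −0.63 for Car1 to −0.12 for Car5b, and among those other than Car5b and Car1, Car13 alone had an unadjusted p under 0.05 (−0.24, limma, adjusted p = 0.837), beside 5.95% of all probe sets. Over both strains, Car13 was the 1 of these members at an unadjusted p under 0.05, with −0.13 between CAF and STD (limma, adjusted p = 0.575), beside 8.26% of all probe sets. This pooled value joins −0.25 in WKY rats and −0.0065 in LEW rats. The Car13 results for diet in WKY rats, interaction and both strains share the same WKY arrays and are not separate observations.

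Of the 6 nearest measured neighbours of Car5b on the X chromosome, 1 passed the test between strains on STD, where 11.3% of all probe sets passed, and none on CAF, where 7.58% did. In gene order, they were Pir, Bmx and Cltrn on one side and Ap1s2, Grpr and Ctps2 on the other. Bmx, a cytoplasmic tyrosine kinase, was higher by 0.52 in WKY than in LEW rats on STD (limma, adjusted p = 0.0349) and differed by 0.23 on CAF (limma, adjusted p = 0.49). The other 5 did not pass on either diet, Ap1s2, next to Car5b, differing by 0.0019 on STD (limma, adjusted p = 0.993). Car2, Car3, Car1 and Car13 lie next to each other on chromosome 2 in that order. Of their 6 neighbours, Zfp458 was higher in WKY rats, by 0.34 on CAF and 0.58 on STD (limma, adjusted p = 0.0437 and 5.14e-04), and Sema5a, Zfp455, Rbis, E2f5 and Lrrcc1 did not pass on either diet, so that 1 of 6 passed on each. Within the cluster the red cell genes Car2 and Car1, which have Car3 between them, had the lower values in WKY rats, and Car3 differed by −0.07 on CAF and 0.09 on STD.

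**Figure D4:**
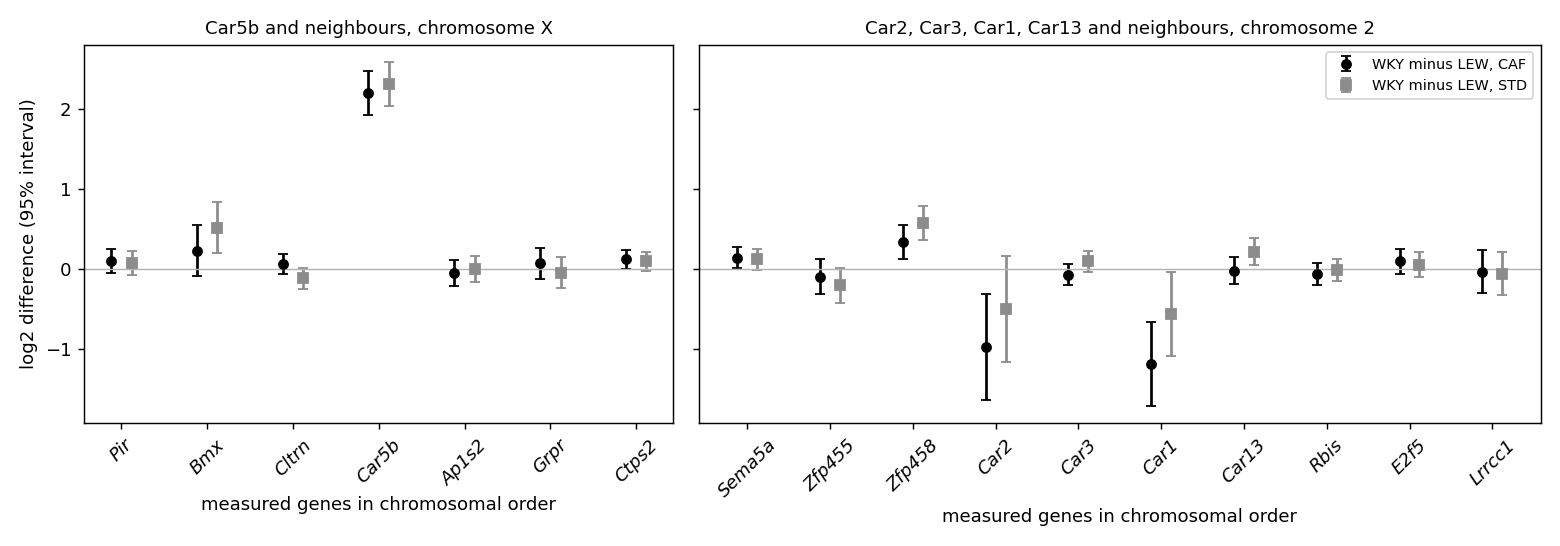
Log2 difference of WKY minus LEW rats with its 95% interval (y axis) for Car5b and for the Car2, Car3, Car1 and Car13 cluster with the 3 nearest measured genes on either side (x axis, gene order, not to scale), on CAF and on STD. Car5b stood at 2.20 and 2.32 while its neighbours lay between −0.12 and 0.52.

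The genes whose signal was most like that of a member over the 20 arrays were named by Pearson's r, as a description of points that share strain and diet. For Car5b these were P2rx4, an ATP-gated ion channel, at 0.99, Dok4, a docking protein of tyrosine kinases, at 0.99, and Ccrl2, an atypical chemokine receptor, at 0.98, each higher in WKY rats on STD (log2 differences of 1.19, 2.00 and 1.99). With the group means taken out the nearest were others, Apbb1ip at 0.86, Sec61g at 0.84 and Maob at 0.84. For Car2 the nearest was Bpgm, the red cell enzyme that makes bisphosphoglycerate, at 0.97 over the arrays and at 0.96 with the group means taken out. The nearest to Car1 were Akr7a3, Rhd and Mpst (0.93 to 0.94) over the arrays, and Blvrb, Mpst and Gpx1 (0.90 to 0.93) with the group means taken out. For Car8 the first was Hdc, which makes histamine, at 0.91, followed by Alox5 and Il1r2, both at 0.90, and for Car4 it was Zfp532, at 0.94. For Car12, Car3 and Car13 the first were P2ry6 (0.86), Madcam1 (0.87) and Wnt8a (0.75).

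The other 7 measured members of the family, Car5a, Car6, Car7, Car9, Car11, Car14 and Car15, gave no call in any comparison. Group means of Car5a, Car7, Car9, Car14 and Car15 were at most 6.60, below the array medians. At such low signals the lack of a call says little. Of all probe sets, 7.58% passed between strains on CAF, 11.3% on STD, and 0% between diets or in the interaction. Car5a, the second mitochondrial enzyme, was at 6.57 ± 0.16 in WKY and 6.60 ± 0.05 in LEW rats on STD (SD, n = 5 each), a difference of −0.03 (limma, adjusted p = 0.849). The lowest adjusted p among the 7 between strains was that of Car15 on STD, with 0.22 (limma, adjusted p = 0.0698).

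Of 22 measured genes for bicarbonate, proton and gas channels, 3 were higher and 1 lower in WKY rats on CAF, and 4 were higher and 1 lower on STD, beside 7.58% of all probe sets called on CAF and 11.3% on STD. Slc4a11, a membrane transporter of the bicarbonate transporter family, was higher on CAF and STD by 0.66 and 0.47 (limma, adjusted p = 6.57e-09 and 9.81e-07), and Aqp9, a channel for water and glycerol, by 1.03 and 1.37 (limma, adjusted p = 0.0104 and 6.39e-04). The red cell membrane partners Rhag and Rhd moved in opposite directions. Rhag was higher by 1.53 and 1.05 (limma, adjusted p = 5.40e-05 and 0.002), whereas Rhd had differences of −2.48 and −1.80 (limma, adjusted p = 6.58e-04 and 0.00829), and both also belong to the erythroid list. Slc26a9, an anion transporter, passed on STD, where it was higher by 0.42 (limma, adjusted p = 0.0239), and differed by 0.21 on CAF (limma, adjusted p = 0.37).

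Mitochondrial carboxylases take up the bicarbonate that Car5 enzymes can supply. A wider list of bicarbonate-using and mitochondrial enzymes, which besides carboxylases holds genes such as Adcy10, Otc, Btd and Glud1, had 12 measured genes. Of these, 1 was lower in WKY rats on CAF and 2 were lower on STD, beside 7.58% and 11.3% of all probe sets called. Pcca, a subunit of propionyl-CoA carboxylase, was lower in WKY rats on both diets, with differences of −0.85 on CAF and −1.08 on STD (limma, adjusted p = 4.30e-05 and 2.07e-06). Its means on STD were 8.16 ± 0.17 in WKY and 9.24 ± 0.24 in LEW rats (SD, n = 5 each). Glud1, a mitochondrial glutamate dehydrogenase and no carboxylase, was lower on STD, with a difference of −0.30 (limma, adjusted p = 8.83e-04), and differed by −0.03 on CAF (limma, adjusted p = 0.874). The other 10 did not pass on either diet. No gene of the 3 lists passed between diets, where 0% of all probe sets passed.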

How the data were processed

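RNA from blood cells of 20 rats was measured on Rat Gene 1.0 ST arrays. The authors deposited 1 table of log2 signals per probe set, on which the sources differ, the methods naming RMA and the submitters' processing notes MAS5 without a version. RMA fits probe sets over all arrays, so if the values are RMA values, those of an array are not independent of the other arrays. They were used as deposited, without a filter, floor or further scaling. Groups came from the sample titles.

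A linear model with a mean for each group was fitted to the 20 arrays in limma 3.58.1 (R 4.3.3), with no variance trend and Benjamini–Hochberg adjustment over 28826 probe sets. A call is an adjusted p under 0.05. The number of arrays limits the precision, with a median SE of 0.07 for a difference of 2 groups. Permutations of rats within groups (100000, Python 3.11.15, NumPy 2.4.6, two-sided) gave the p of correlations, the smallest possible being 1e-05. The fits and permutations were tested on simulated data.

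Gene names came from the platform annotation, which listed 15209 probe sets under 1 symbol, 306 under several and 13311 not at all. Neighbours and promoters came from rat RefSeq (GRCr8), where 3 of the 8 members had a promoter entry. Genes are named by rule: the members, at most 4 genes of the smallest adjusted p per related list and comparison, the 3 most similar probe sets per member, the 3 nearest measured neighbours on each side and the defining cell markers. Members and lists were chosen with earlier results of these data known. Replicate numbers were not taken as a pairing, since the rats were different animals. Whether same-numbered rats shared a processing order is not known, and the permutations took no account of it. Alternatives were median centring, a trended robust variance, a filter at the median mean signal, fitting only the groups compared, leaving out each array, a replicate block, and the erythroid, neutrophil or monocyte marker mean as a covariate.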

Additional observations from a re-analysis of the deposited data

Results flagged for a closer look

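Single rats stood apart from the other 4 of their group in 4 of 32 combinations of gene and group, by Dixon's gap ratio at its 95% critical value, where chance gives about 1 in 20. Car1 was at 6.04 in replicate 3 of the CAF-fed WKY rats, against 6.38 to 6.49 in the others, and this rat also had the lowest erythroid mean of its group, 8.37. Car3 was at 5.51 in replicate 2 of the CAF-fed WKY rats, against 5.63 to 5.66 in the others. Replicate 1 of the STD-fed LEW rats was low for both Car4, at 6.82 against 7.01 to 7.08, and Car13, at 5.47 against 5.66 to 5.73.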

How the results depend on the processing

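Car5b kept its call on STD under all 28 alternatives, with log2 differences of 2.24 to 2.57 and adjusted p from 1.00e-10 to 1.85e-05 (limma). With the neutrophil mean as a covariate, 1 of the 8 members passed on STD in place of 3, Car4 turned to −0.18 and Car8 to −0.32, and 360 probe sets passed on STD in place of 3247 and 943 on CAF in place of 2185. With the monocyte mean 1159 passed on CAF. With the erythroid or the monocyte mean Car8 lost its call on STD, leaving 2 members. Leaving out 1 array gave 2 to 3 members on STD and none between diets or in the interaction. The filter on low signals left out Car1, Car3, Car8 and Car13. Fitting only the groups compared could not be done for the interaction or the mean over strains. The replicate block left 3 members on STD, with 3384 probe sets in all, gave 1 probe set between diets in WKY rats and changed no call of a member. Deviations of same-numbered rats correlated at −0.177 to 0.43, over 0.1 in 9 of 30 pairs. Rats of different numbers were not compared in this way, so these values cannot decide whether the numbers carry a shared order. The numbers were not read as a pairing because the rats were different animals. With WKY CAF replicate 4 left out, 1 probe set passed between diets in WKY rats. The causes of these shifts were not tested. The neutrophil mean on STD and the monocyte mean on either diet did not overlap between strains, so these covariates cannot be separated from strain there. The erythroid mean on CAF overlapped between strains only from 9.16 to 9.20. Each member's values rest on 1 probe set, and probe sequences were not used here, so strain variants under the probes were not checked.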
